A study of Mus musculus with 8 samples.

Results

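Fatty acid binding proteins (FABPs) and the fatty acid receptor CD36 were followed in the livers of WT mice and of mice that lack both liver X receptors (LXRs). The genes were chosen by symbol as the 5 FABP genes Fabp1, Fabp2, Fabp4, Fabp5 and Fabp7 together with Cd36, that is, 6 of the 25010 genes in the RNA-Seq table, and all 6 passed the filter on low values. RNA-Seq libraries were made from the left liver lobe, 1 per mouse, for 2 mice of each genotype (WT and LXRDKO). All 4 mice were on a C57BL/6 background, were 8 wk old, ate standard chow and were fasted for 4 to 6 h before the tissue was taken. LXRDKO mice carry deletions of LXRα (Nr1h3) and LXRβ (Nr1h2) in the whole body, so hepatocytes and every other cell of the liver lack the receptors. Values are normalized counts, meaning reads on a gene divided by a size factor of the library. The comparison asked which of these lipid carriers had a different transcript level in LXRDKO liver.

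FABPs are small cytosolic proteins that hold long-chain fatty acids in a barrel-shaped pocket and carry them between membranes, enzymes and nuclear receptors. FABP1 is the form of the hepatocyte and one of its most abundant cytosolic proteins, FABP2 is the intestinal form, FABP4 is the form of adipocytes and macrophages, FABP5 is found in skin, macrophages and other tissues, and FABP7 is known from glia. CD36 is a membrane glycoprotein of the class B scavenger receptors that takes up long-chain fatty acids and oxidized lipoproteins in macrophages, endothelial cells, platelets, muscle and fat, and in hepatocytes. LXRs are nuclear receptors for oxysterols, pair with RXR on DNA and control genes of cholesterol and fatty acid metabolism, while the related receptor PPARα responds to fatty acids themselves.

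Of the 6 genes, 5 (Fabp1, Fabp2, Fabp5, Fabp7 and Cd36) were at a lower level in each LXRDKO liver than in each WT liver, and 1 (Fabp4) was at a higher level. Over all 15578 genes tested, 23.0% lay lower in both LXRDKO livers and 21.7% lay higher in both. The median log2 fold change (LXRDKO against WT) was −1.11 over the 6 genes and −0.0046 over all genes tested. None of the 6 passed limma at an adjusted P value of 0.05, a threshold that 0.321% of all genes passed, and none passed edgeR, which called 0.315%. The unadjusted limma P value lay under 0.05 for 6 of the 6 genes and for 13.3% of all genes. Because the 6 were chosen with earlier results of these data known, that contrast is no independent test. DESeq2 on the recovered reads called 4 of the 6 lower (Fabp1, Fabp2, Fabp5 and Cd36) and 0 higher, against 2.03% of all genes called lower and 1.56% called higher. With 2 livers against 2, the smallest P value that a two-sided exact permutation test allows for 1 gene is 0.333, and the calls rest on the spread that each tool pools across genes.

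**Figure D1:**
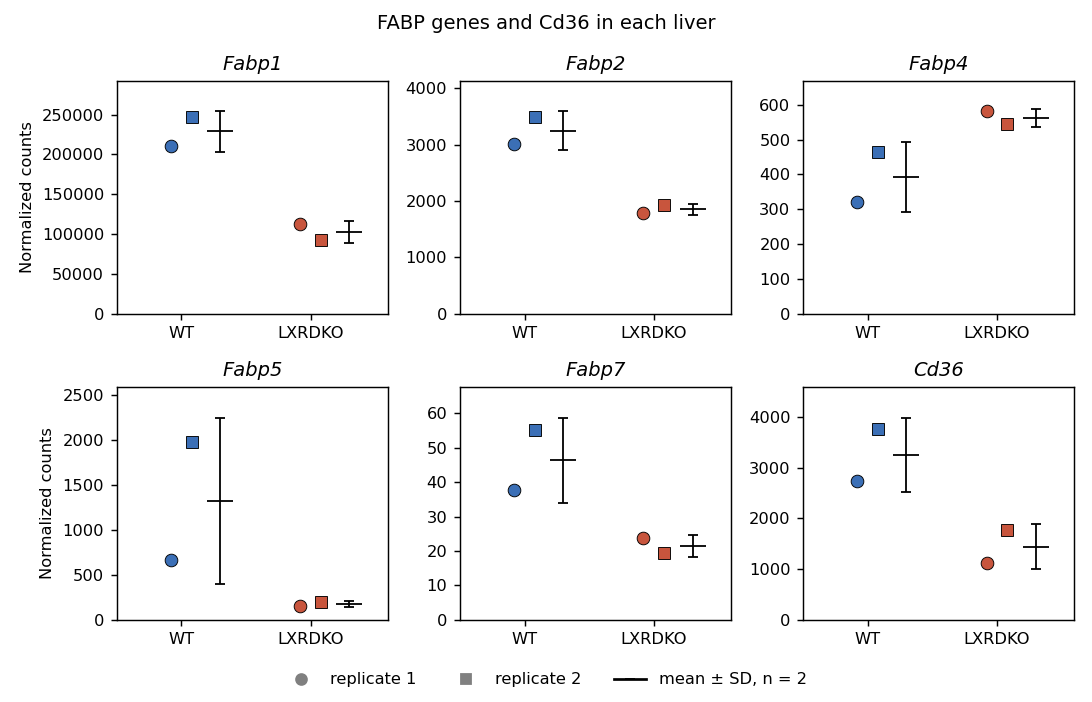
Normalized counts of the 6 genes in each liver on linear axes that start at 0, with 1 point per liver (circle for replicate 1, square for replicate 2) and bars for the mean ± SD of each genotype (n = 2). The WT and LXRDKO points do not overlap for any gene, and Fabp4 is the gene whose LXRDKO points, at 581 and 543, lie above the WT points.

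Libraries held from 55772659 to 72842744 reads on genes. Nr1h3 and Nr1h2, the deleted receptors, were lower in LXRDKO with log2 fold changes of −1.65 and −1.66 (adjusted P = 0.0147 for each, limma). The summed level of the 6 hepatocyte markers overlapped between the genotypes, from 6755520 to 7740860 normalized counts in WT and from 6460790 to 7008030 in LXRDKO. Alb, encoding albumin, made up most of that sum and had a log2 fold change of −0.14. Of the 6 markers, 1 was lower and 1 higher in both LXRDKO livers, beside 23.0% and 21.7% of all genes. No tool called any of them. Over all genes, limma called 0.321%, edgeR called 0.315%, and DESeq2 called 2.03% lower and 1.56% higher.

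Fabp1, the hepatocyte carrier (ENSMUSG00000054422, chromosome 6 from 71199827 to 71205023 of GRCm38, forward strand), stood at 211049 and 246753 normalized counts in WT against 112144 and 92912 in LXRDKO. Both LXRDKO livers lay far below both WT livers. The second liver differed from the first by 0.23 on the log2 scale in WT and by −0.27 in LXRDKO, where the median absolute difference over all genes was 0.18 and 0.17. The level was 2.24-fold higher in WT, a log2 fold change of −1.16 (standard error 0.19, 95% interval −1.63 to −0.70). The adjusted P value was 0.105 with limma, 0.0957 with edgeR and 2.32e-10 with DESeq2. Fabp1 took 0.332% and 0.399% of all reads on genes in WT livers against 0.186% and 0.154% in LXRDKO livers. Per kilobase of exon it ranked 10th and 8th of 24987 genes in WT and 17th in both LXRDKO livers.

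The promoter of Fabp1 is printed because it belongs to the most abundant of the 6 genes and holds the closest DR1 match of the 4 promoters searched. These were RefSeq promoters (GRCm38.p6, 250 bases before to 50 bases after the start), which matched Fabp1, Fabp2, Fabp7 and Cd36, 4 of the 6 genes. Both strands were searched for DR1, a pair of half-sites with 1 base between them that is bound by PPAR with RXR and by HNF4α, and for DR4, the same half-sites with 4 bases between them, which is bound by LXR with RXR. The stretch below is chr6:71199629-71199826 on the forward strand, 198 bases that end just before the first annotated transcript start, and capitals mark the DR1 match, which lies on the opposite strand 67 to 55 bases before the RefSeq start.
Fabp1: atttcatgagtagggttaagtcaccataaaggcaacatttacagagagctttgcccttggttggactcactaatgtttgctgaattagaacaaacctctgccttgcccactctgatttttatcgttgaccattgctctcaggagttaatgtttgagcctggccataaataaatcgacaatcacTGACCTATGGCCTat

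Read on the opposite strand, the best DR1 matches of Fabp1 and Cd36 are set against the motif, with the half-sites in capitals and the spacer base in lower case.
DR1: AGGTCAnAGGTCA
Fabp1: AGGCCAtAGGTCA
Cd36: AAGTCAgAGGCCA

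The Fabp1 match differs from the 12 half-site letters at 1 position, and 0.554% of 32851 RefSeq promoters hold a match that is as close. The Cd36 match, 63 to 51 bases before the RefSeq start, differs at 2 positions, as in 3.86% of promoters. Fabp2 and Fabp7 had no DR1 match closer than 3 differences, a closeness that 24.7% of promoters reach. For DR4 (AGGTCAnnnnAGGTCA) the best matches had 3 differences in Fabp1 and Fabp7, 4 in Cd36 and 5 in Fabp2, and 21.9%, 76.9% and 99.8% of promoters hold matches at least as close as 3, 4 and 5 differences. A match describes the letters of these windows only, and receptor binding was not analysed here.

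Fabp2, the intestinal form (ENSMUSG00000023057, chromosome 3 from 122895072 to 122899506, forward strand), had 3008 and 3489 normalized counts in WT against 1784 and 1923 in LXRDKO. The gap between the genotypes was wide relative to the difference within each, and no LXRDKO liver reached a WT liver. The log2 fold change was −0.81 (standard error 0.11, 95% interval −1.08 to −0.53), with an adjusted P value of 0.0813 in limma, 0.0799 in edgeR and 2.70e-05 in DESeq2. Leaving out the first LXRDKO liver took the adjusted P value of DESeq2 to 0.0530. The gene overlaps 4933405D12Rik on the opposite strand, and whether the counting used strand is not given in the sources used here. Of 4 intestinal markers listed, 2 were in the table and were read beside Fabp2. Lgals4 had 2012 and 2314 normalized counts in WT against 1092 and 616 in LXRDKO, and Vil1, a brush border protein, lay between 11.4 and 30.6 in all 4 livers. The part of Lgals4-expressing cells in the Fabp2 difference was not tested.

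The hepatocyte and intestinal forms were also set against each other. The ratio of Fabp1 to Fabp2 normalized counts was 70.2 and 70.7 in WT against 62.9 and 48.3 in LXRDKO. The ratio was nearly equal in both WT livers and lower, without overlap, in the LXRDKO livers, a difference of −0.35 on the log2 scale that was not put to a test of its own.

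Cd36, the membrane receptor for fatty acids (ENSMUSG00000002944, chromosome 5 from 17781690 to 17888801, reverse strand), had 2727 and 3772 normalized counts in WT against 1129.5 and 1761 in LXRDKO. The highest LXRDKO liver lay below the lowest WT liver, although the livers of each genotype were further apart than for Fabp1 or Fabp2. The log2 fold change was −1.18 (standard error 0.25, 95% interval −1.81 to −0.56). The adjusted P value was 0.155 in limma, 0.168 in edgeR and 0.000249 in DESeq2, and DESeq2 still called the gene in each of the 4 fits that left out 1 liver. The ratio of Fabp1 to Cd36 was 77.4 and 65.4 in WT and 99.3 and 52.8 in LXRDKO, with the LXRDKO livers on either side of the WT livers.

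CD36 is also made by Kupffer and endothelial cells, whose markers are given beside it. All 6 Kupffer cell markers had lower counts in both LXRDKO livers, as 23.0% of all genes did. Their summed level was 7892 and 8907 normalized counts in WT against 1262 and 715 in LXRDKO. Clec4f, a Kupffer cell lectin, had a log2 fold change of −2.93 (adjusted P = 0.0267, limma). The summed level of 8 endothelial markers was 11382 and 10086 in WT and 7983 and 6350 in LXRDKO. Of the 8, 5 were lower in both LXRDKO livers, beside 23.0% of all genes, and 3 (Stab2, Lyve1 and Vwf) overlapped. Limma and DESeq2 called 2 of the 8 lower, Cdh5 and Kdr, and Lyve1 had a log2 fold change of 0.23. Over all genes, limma called 0.321% in either direction and DESeq2 called 2.03% lower. The 6 general macrophage markers summed to 8974 and 10366 in WT and to 12766 and 7839 in LXRDKO, so the groups overlapped. In whole liver, fewer cells of a type and less RNA per cell cannot be told apart, and the part of either cell type in the Cd36 difference was not tested. Platelet markers summed to between 224 and 257 in all 4 livers, a sum made mostly of Itga2b (174 to 220 per liver, log2 fold change −0.28). Pf4, a platelet chemokine, went the other way, at 6.84 and 20.4 in WT against 50.3 and 74.0 in LXRDKO (log2 fold change 2.26, adjusted P = 0.205 in limma and 0.0440 in DESeq2). The muscle marker Acta1 lay between 0 and 3.22.

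**Figure D2:**
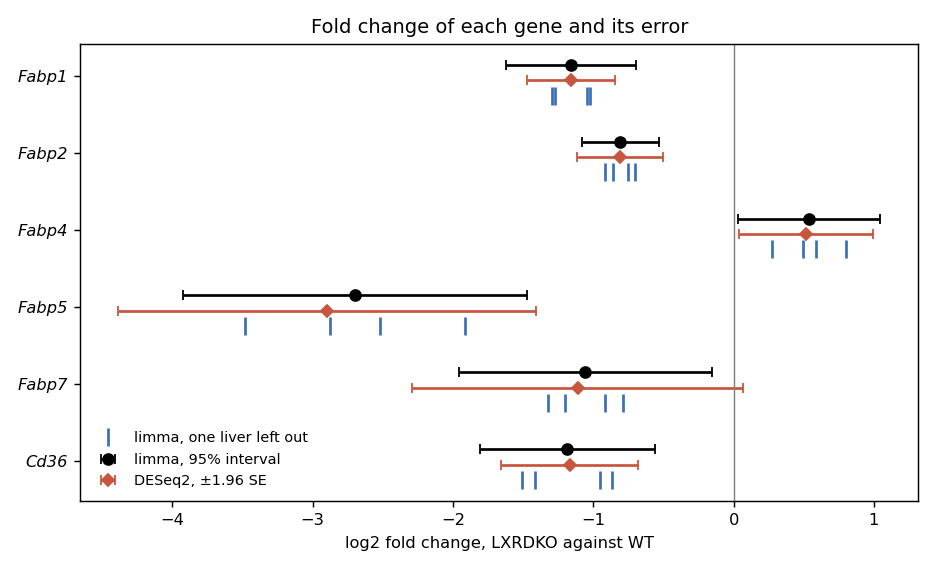
Log2 fold change of each gene (LXRDKO against WT) by limma, with 95% intervals, above the DESeq2 estimate with its normal 95% interval and ticks for limma with 1 liver left out. The limma estimate for Fabp4 is 0.54 and those of the other 5 genes run from −0.81 to −2.70.

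Fabp5 (ENSMUSG00000027533, chromosome 3 from 10012548 to 10016607, forward strand) had the largest difference of the 6 genes and the widest spread between WT livers. It had 667 and 1978 normalized counts in WT against 156 and 199 in LXRDKO. Both LXRDKO livers lay well below the lower of the WT livers, and the second WT liver held 2.96 times the level of the first (95% counting interval 2.71 to 3.25). That WT difference, 1.57 on the log2 scale, was larger than the difference of 98.0% of the genes tested. The log2 fold change of −2.70 (standard error 0.49, 95% interval −3.93 to −1.47) was the 23rd lowest of 15578. The adjusted P value was 0.127 in limma, 0.133 in edgeR and 0.00654 in DESeq2.

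The size of the Fabp5 difference depended on which WT liver was used. The limma log2 fold change was −3.48 without the first WT liver and −1.92 without the second, and it passed the threshold in both of these fits. With 1 WT liver left, the spread between the WT livers no longer enters the standard error. That error was 0.23 and 0.25 in these fits, against 0.49 with all 4 livers. Limma gave −2.52 without the first LXRDKO liver and −2.88 without the second, and there it did not pass. Without the first LXRDKO liver the DESeq2 log2 fold change was −2.73 and without the second it was −3.09, close to the −2.90 of all 4 livers, but the gene was no longer called (adjusted P = 0.470 and 0.331). Fabp5 is also the gene among the 6 whose reads could fall elsewhere. Of 938 stretches of 50 bases in its coding transcript, 409 (43.6%) occur at other places of the genome, against 0 for the other 5 genes. These places number 6. The pseudogenes Gm18103 and Gm6166, at the place that shares 369 stretches with it, had between 0 and 2.55 normalized counts in every liver. Pseudogenes at other places, Gm14328 (195 stretches), Gm6100 (59), Fabp5l2 (58) and Gm13998 (51), were not in the table. A further place, on chromosome 14 (146 stretches), holds no annotated gene. Reads that fell there cannot be read from these values. How the authors treated reads with several matches is not given in the sources used here for RNA-Seq.

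Fabp4 (ENSMUSG00000062515, chromosome 3 from 10204088 to 10208576, reverse strand), the adipocyte and macrophage form, went the other way. It had 322 and 463 normalized counts in WT against 581 and 543 in LXRDKO, so that each LXRDKO liver exceeded each WT liver. The log2 fold change was 0.54 (standard error 0.20, 95% interval 0.03 to 1.05), and no tool called it (adjusted P = 0.349 in limma, 0.375 in edgeR and 0.352 in DESeq2). The limma log2 fold change was 0.28 without the first WT liver and 0.80 without the second. The adipocyte markers Adipoq, Plin1 and Retn lay between 0 and 1.70 normalized counts in all 4 livers, and Cfd, the highest of that list, overlapped between the genotypes at 69.6 and 28.9 in WT and 10.4 and 38.6 in LXRDKO.

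Fabp4 and Fabp5 are neighbours, with no other tested protein-coding gene in the 187 kb between them, and they are read from opposite strands. The ratio of Fabp5 to Fabp4 normalized counts was 2.07 and 4.27 in WT and 0.268 and 0.367 in LXRDKO, so Fabp5 led in both WT livers and Fabp4 led in both LXRDKO livers. Pag1 and Impa1, which flank the pair, had log2 fold changes of 0.19 and −0.00054. Over the 20 other genes among the 2 nearest on each side of the 6, log2 fold changes ran from −0.32 (Pde5a) to 0.70 (Gnai1). Of these, 0 were called by limma, edgeR or DESeq2, and 0 lay under 0.05 in limma before adjustment. Between the genotypes 14 overlapped, while 4 were lower and 2 higher in both LXRDKO livers. Over all genes, 23.0% were lower and 21.7% higher in both. The calls over all genes were 0.321% in limma, 0.315% in edgeR, and 2.03% lower and 1.56% higher in DESeq2. Before adjustment 13.3% lay under 0.05 in limma.

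Macrophage markers did not share a direction in these livers. Against the lower Kupffer cell markers, the 4 markers of lipid-associated macrophages summed to 1916 and 4063 normalized counts in WT against 4938 and 5551 in LXRDKO. Spp1, which encodes osteopontin and is also made by bile duct cells, had the highest level of that list, at 1433 and 2907 in WT and 3658 and 4300 in LXRDKO, and Cd9, the next, overlapped between genotypes. Spp1 made up most of that sum and was called by neither limma nor DESeq2. Gpnmb, at 11.4 and 25.5 in WT against 644 and 622 in LXRDKO, was the marker of the list that limma called (log2 fold change 5.13, adjusted P = 0.0239). Trem2, a lipid receptor of macrophages, had a log2 fold change of 2.04 (adjusted P = 0.235 in limma and 0.0334 in DESeq2). The part of these cells in the opposite directions of Fabp4 and Fabp5 was not tested.

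Fabp7 (ENSMUSG00000019874, chromosome 10 from 57784881 to 57788450, forward strand), the glial form, was measured near the low end of the table. It had 37.6 and 55.2 normalized counts in WT against 23.7 and 19.3 in LXRDKO, from 33, 65, 25 and 18 reads. The genotypes did not overlap, but the 95% counting interval of the first WT liver, from 25.9 to 52.9, overlapped that of the first LXRDKO liver, from 15.4 to 35.0. The log2 fold change was −1.06 (standard error 0.36, 95% interval −1.96 to −0.15). No tool called it (adjusted P = 0.316 in limma, 0.313 in edgeR and 0.501 in DESeq2). Gfap, a marker of glia, lay between 20.5 and 28.9 normalized counts in all livers.

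**Figure D3:**
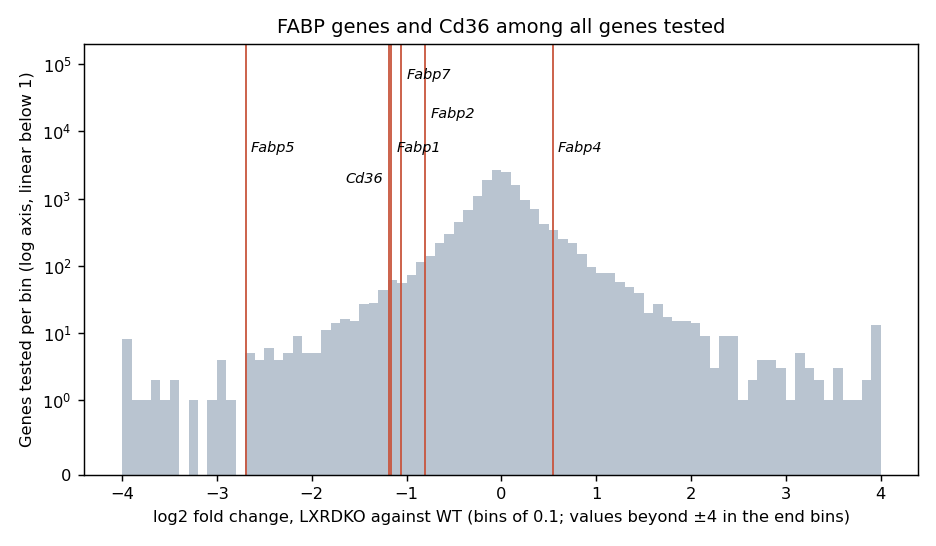
Number of genes (log axis, linear below 1) in bins of the limma log2 fold change over all 15578 genes tested, with values beyond the axis in the end bins and lines at the 6 genes. Fabp5 lies at −2.70, Cd36, Fabp1 and Fabp7 lie close together between −1.18 and −1.06, and Fabp4 lies at 0.54.

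The order of the genes was set on a scale of normalized counts per kilobase of merged exons. In WT livers the mean level ran from Fabp1 (413926) to Fabp2 (3366), Cd36 (905), Fabp5 (371), Fabp4 (87.4) and Fabp7 (37.1). In LXRDKO livers the mean levels were 185404 for Fabp1, 1921 for Fabp2, 403 for Cd36, 125 for Fabp4, 49.8 for Fabp5 and 17.2 for Fabp7, with Fabp4 and Fabp5 in the opposite order. No neighbours in either order overlapped between their livers on this scale. Fabp1 made up 99.1% of the summed per-kilobase level of the 5 FABP genes in WT and 98.9% in LXRDKO.

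The merged exons of Fabp4 and Fabp5, 4489 and 3567 bases, include long transcripts that retain introns, while their coding transcripts have 896 and 987 bases. With the length of the coding transcript, a choice made after seeing the data, Fabp5 stood at 676 and 2004 per kilobase in the WT livers and overlapped Cd36, at 802 and 1109.7. On that scale Fabp4 reached 648 and 607 in the LXRDKO livers, above Cd36 at 332 and 518. Fabp1 still made up 98.8% of the FABP sum in WT and 98.5% in LXRDKO. Within the sum of the other 4 FABP genes, the share of Fabp5 on the merged-exon scale was 9.60% in WT and 2.36% in LXRDKO, and that of Fabp4 was 2.26% and 5.93%. With the coding length these shares were 25.8% and 6.54% for Fabp5 and 8.43% and 22.8% for Fabp4. The Fabp5 share in WT rested on the liver used, at 5.49% in the first and 12.8% in the second with merged exons, and at 16.1% and 32.3% with the coding length.

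**Figure D4:**
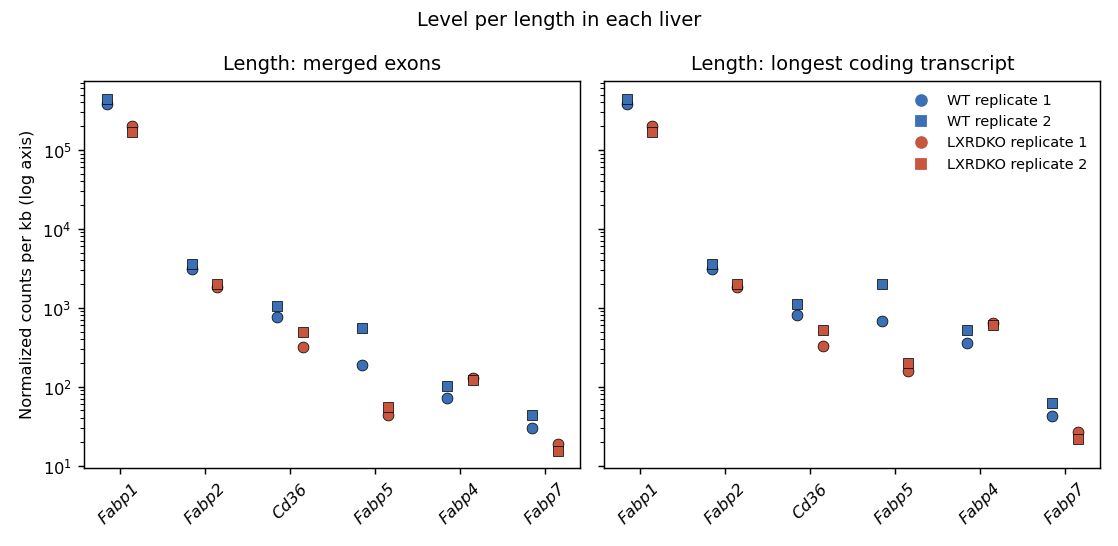
Normalized counts per kilobase (log axis) in each liver, with circles for replicate 1 and squares for replicate 2, and with the length taken from merged exons on the left and from the coding transcript on the right. Fabp1 stands between 168015 and 446207 in all livers on both scales, and the order of Fabp4 and Fabp5 differs between the genotypes on both.

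Other FABP genes, 3 in all, were in the table and fell under the filter, with few reads in any liver. Fabp3, the heart form, lay between 0 and 1.07 normalized counts. Fabp6, which carries bile acids in the ileum, was at 0 in 3 livers and at 2.85 in the first LXRDKO liver. Fabp12 lay between 1.07 and 4.24. These values are near the 3 reads that a count of 0 allows, and no fold is given. Fabp9 and Pmp2 were looked for but were not in the table under these symbols.

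Genes that work beside FABPs and CD36 were taken as a list of 42, of which 37 were in the table and 32 were tested. Log2 fold changes were under 0 for 24 and above 0 for 8, and the median was −0.14. In both LXRDKO livers 10 of the 32 were lower and 3 were higher, beside 23.0% and 21.7% of all genes. Limma and edgeR called 0 of them, 7 lay under 0.05 in limma before adjustment (13.3% of all genes did), and DESeq2 called 4 lower and 2 higher (2.03% and 1.56% of all genes).

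The fatty acid transport proteins and the scavenger receptor relatives of CD36 had log2 fold changes from −0.34 to 0.18. Slc27a2, an acyl-CoA synthetase of the hepatocyte that takes part in fatty acid uptake, had 142919 and 146718 normalized counts in WT against 120859 and 107702 in LXRDKO, a log2 fold change of −0.34 (adjusted P = 0.416, limma). Slc27a5, which activates bile acids and fatty acids, showed a log2 fold change of −0.19 (adjusted P = 0.591, limma). None of the 7 tested genes of these groups was called by limma, edgeR or DESeq2. Over all genes the calls were 0.321% in limma, 0.315% in edgeR, and 2.03% lower and 1.56% higher in DESeq2. None of the 7 lay under 0.05 in limma before adjustment, beside 13.3% of all genes. In both LXRDKO livers 3 of the 7 lay lower, as 23.0% of all genes did.

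Among other carriers, Dbi, the acyl-CoA binding protein, resembled Fabp2. It had 31356 and 34572 normalized counts in WT against 19375 and 20330 in LXRDKO, a log2 fold change of −0.73 (adjusted P = 0.0893 in limma and 5.13e-06 in DESeq2). Cav1, the caveolin that binds cholesterol at the plasma membrane and takes part in CD36 traffic, was higher, with 145 and 149 in WT and 374 and 234 in LXRDKO (log2 fold change 1.00, adjusted P = 0.219 in limma and 0.0291 in DESeq2).

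The receptors that FABPs deliver fatty acids to were not uniform. Ppara had 15122 and 12695 normalized counts in WT against 8264 and 10337 in LXRDKO, a log2 fold change of −0.58 (adjusted P = 0.214 in limma and 0.0282 in DESeq2). Pparg, a receptor that acts on Cd36 and Fabp4 in macrophages and fat, overlapped between the genotypes (log2 fold change −0.34, adjusted P = 0.698, limma). Hnf4a, the hepatocyte receptor that also binds DR1 motifs, was higher (log2 fold change 0.60, adjusted P = 0.224 in limma and 0.0115 in DESeq2).

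Of 12 PPARα targets, 11 had limma log2 fold changes under 0, with a median of −0.20 beside −0.0046 over all genes tested. The sign of Pdk4 and Angptl4 depended on the tool, at −0.20 and −0.014 in limma and 0.199 and 0.0155 in DESeq2. In both LXRDKO livers 4 of the 12 lay lower and 0 higher, beside 23.0% and 21.7% of all genes. Vnn1, the pantetheinase vanin-1, had a log2 fold change of −0.87 (adjusted P = 0.244 in limma and 0.00792 in DESeq2).

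**Figure D5:**
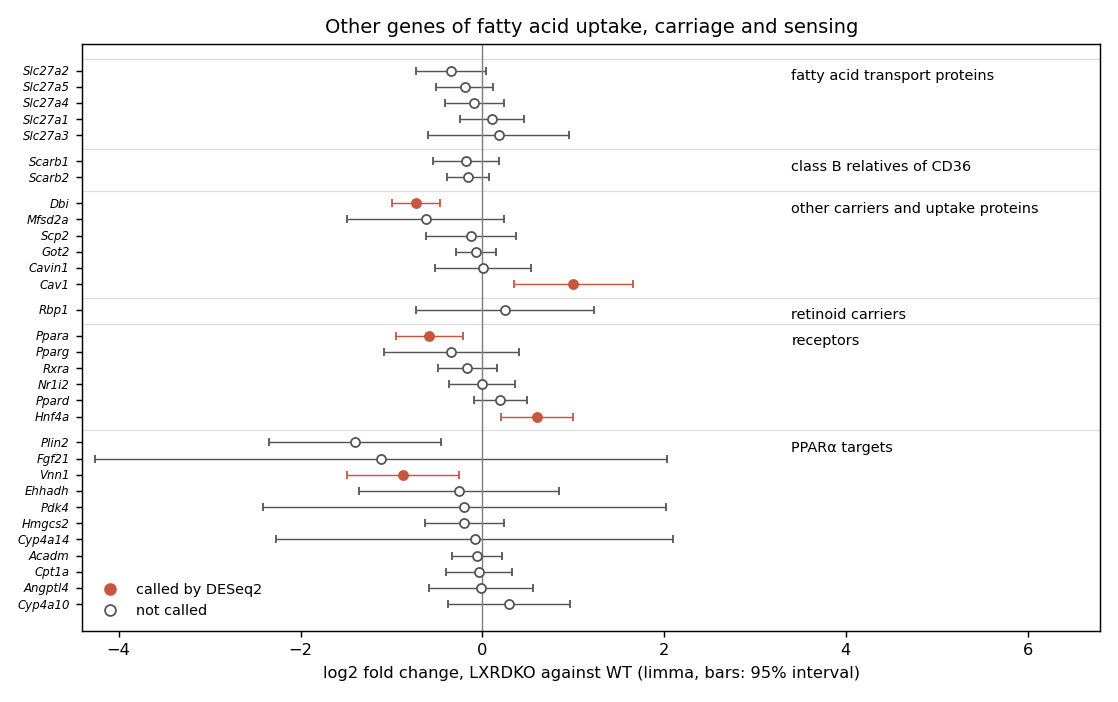
Log2 fold change (LXRDKO against WT, limma) of 31 of the tested genes that work beside FABPs and CD36, by group, with 1 point and a 95% interval per gene, filled where DESeq2 called it. Values run from −1.40 to 1.00.

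The genes with the most similar pattern were found by the root mean square difference of log2 levels centred on each gene, over the 4 livers and 11410 genes whose mean level reached 100 normalized counts. For Fabp1 these were Il2rb (0.04), Sel1l3 (0.06) and Eepd1 (0.08). For Fabp2 they were Ccdc57 (0.02), Mtm1 (0.03) and Btnl9 (0.03), and for Cd36 they were Meiob (0.05), Hunk (0.09) and Serpina3f (0.10). For Fabp4 they were Bcl2l11 (0.04), Oxct1 (0.04) and Mfge8 (0.05). No gene came as close to Fabp5, whose nearest were Lpl (0.28), Pltp (0.31) and H2-Q1 (0.35). Lpl, the lipoprotein lipase, shared with Fabp5 a higher level in the second WT liver, at 1487 and 3667 normalized counts in WT against 469 and 372 in LXRDKO. Fabp7 was under the level needed for this comparison.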

How the data were processed

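The authors sequenced polyadenylated RNA as single-end reads of 50 bases, aligned them to mm10 with STAR 2.6.0c and deposited a signal, reads per gene divided by the DESeq2 size factor of each library. The tool that counted reads is not given in the sources used here. Whole reads were recovered from 100% of values (tolerance 0.01 reads). Log2(normalized count + 1) was compared with limma 3.58.1 (R 4.3.3) with a variance trend and a minimum mean of 10 per gene, with Benjamini-Hochberg adjustment. This scale understates changes of low genes. DESeq2 1.42.0 and edgeR 4.0.16 (quasi-likelihood) were run on the recovered reads. Counting intervals (exact, 95%) cover counting error only. GENCODE M21 (GRCm38) gave positions for 24987 genes and none for 23. Each mouse was 1 replicate. Chromatin accessibility was not analysed here.

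The 6 genes and all lists were chosen with earlier results of these data known. The text names the 6 genes, other Fabp genes, called pathway genes, Slc27a2, Slc27a5, Ppara, Pparg, neighbours, nearest patterns, and up to 2 of the highest markers of a cell type. Adipoq, Plin1, Retn, Pf4, Gpnmb, Trem2, Cdh5, Lyve1 and Vwf were named after their values were seen. Cholangiocyte, stellate and erythroid lists were also computed. Some genes that this rule names are not reported here.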

Additional observations from a re-analysis of the deposited data

How the results depend on the processing

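Over 20 alternatives (a pseudocount of 0.5 or 8, a filter of 50 or none, other scalings, other tests, each liver left out), the direction of all 6 genes held wherever they were tested. Limma called 50 genes, against 25 with the filter at 50, 1 without the trend, 567 with DESeq2, and from 2 to 262 with 1 liver left out. DESeq2 called Fabp1 (−1.16), Fabp2 (−0.81), Fabp5 (−2.90) and Cd36 (−1.17), and 6 of the pathway genes in place of 0. With 1 liver left out, limma gave from −1.30 to −1.02 for Fabp1, −0.91 to −0.70 for Fabp2, 0.28 to 0.80 for Fabp4, −3.48 to −1.92 for Fabp5 and −1.50 to −0.86 for Cd36, and called 0 to 2 pathway genes. DESeq2 with a liver left out was chosen after seeing the data. Without the first and second WT and the first and second LXRDKO liver, in that order, it called 451, 298, 282 and 267 genes and gave −1.27, −1.04, −1.30 and −1.03 for Fabp1 and −1.39, −0.92, −0.89 and −1.52 for Cd36. It called Fabp2 at −0.92, −0.70 and −0.86 without the first WT, second WT and second LXRDKO liver, and Fabp5 at −3.49 and −1.91 without the first and second WT liver. Without the first WT liver limma called Fabp1 (adjusted P = 0.0258) and Fabp2 (adjusted P = 0.0307). A liver that stands alone is assumed to vary like the others. The cause of these changes was not tested.

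Replicate numbers were not shown to pair the mice (correlation of deviations 0.0031). With the replicate number as a block, limma called 90 genes, Fabp5 (−2.70, adjusted P = 0.0454) and Cd36 (−1.18, adjusted P = 0.0284) among them.

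With 2 livers a group, intervals are wide, the level of Fabp5 in WT is known only within its spread of 667 to 1978, and Fabp7 rests on 18 to 65 reads per liver.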

Other observations

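Markers of bile duct, stellate and red blood cells gave values outside the comparisons above. Of 6 stellate cell markers, 5 had log2 fold changes above 0 and 1 had a log2 fold change under 0. In both LXRDKO livers 4 of the 6 were higher, as 21.7% of all genes were. Limma called 0 of them and DESeq2 called 2 higher, beside 1.56% of all genes. All 4 cholangiocyte markers had higher counts in both LXRDKO livers, as 21.7% of all genes did. Their sums were 644 and 675 normalized counts in WT against 895 and 1109.5 in LXRDKO. None was called by limma, and 2 had an unadjusted limma P value under 0.05, as 13.3% of all genes did. DESeq2 called 1 higher, beside 1.56% of all genes. The 4 globin genes summed to 598 and 1969 in WT against 1311 and 1290 in LXRDKO, so the second WT liver had the highest sum. Fabp1, Fabp2, Fabp4, Fabp5, Fabp7 and Cd36 each stood higher in the second WT liver than in the first. Those differences ran from 0.21 (Fabp2) to 1.57 (Fabp5) on the log2 scale, and their relation to the globin sum was not tested.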
